A study of Mus musculus with 8 samples.

Results

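The synaptic vesicle and release machinery was followed here as 53 genes, fixed by name, of the 54752 genes in the count tables of mouse fetal brain at E15.5. The list holds synapsins, vesicle membrane proteins, vesicular glutamate transporters, synaptotagmins and Doc2, the SNARE fusion machinery, Rab3 proteins, active zone scaffolds and endocytosis proteins. All 53 genes were found and all passed the filter on low counts. The brains came from wild-type C57BL/6 fetuses (C57BL/6Slac in the study's methods). In the stress group (n = 4) the dam had been exposed to chronic unpredictable mild stress (CUMS), a changing schedule of mild stressors, from E5.5 to E14.5. In the control group (n = 4) the dam had not. Females were F36 and F37 among the controls and F34 and F35 among the stressed brains, and males were M30 and M31 and, in the stress group, M28 and M29. All control brains shared 1 dam and all stressed brains shared 1 other dam, so the dam and its litter cannot be told apart from the stress, and every p-value below measures the spread between littermates.

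At a mature nerve terminal, synapsins tether vesicles in a reserve, active zone scaffolds and Munc13 proteins dock and prime them, SNARE proteins drive fusion, and synaptotagmins tie fusion to calcium. Complexins clamp and then help the assembled SNARE complex, and dynamin, amphiphysin, endophilin and synaptojanin bring the membrane back. In the fetal brain many of these genes are switched on as neurons leave the cell cycle, well before most synapses have formed.

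Of the 53 genes, 26 were lower and 1 was higher in the stressed brains at an adjusted p under 0.05 (edgeR quasi-likelihood test, sex as covariate, adjustment over all 17865 genes tested). Over all genes tested, 7.27% were called lower and 6.49% were called higher. The 53 genes were chosen with earlier results of these data known. Their count beside these shares is therefore a description and not a test. The median log2 fold change (Log2FC, stress vs. control) was -0.10 over the 53 genes and 0.00 over all genes tested, and 48 of the 53 lay below 0. The falls of the 26 genes were small, between 6.45% and 30.1%. In 20 of these 26 every stressed brain lay below every control brain, and 2 further genes, *Snap47* and *Rab3a*, had groups that did not overlap without passing the test. Over all genes tested, 8.22% had every stressed brain below every control brain and 8.2% had every stressed brain above. The gene with the largest fall in each role that held a call was in turn *Syn2*, *Syngr3*, *Syt12*, *Cplx1*, *Rph3a*, *Unc13a* and *Dnm1*, and the gene that rose was *Cplx2*. In bulk RNA, fewer neurons and less of these RNAs in each neuron cannot be told apart.

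**Figure D1:**
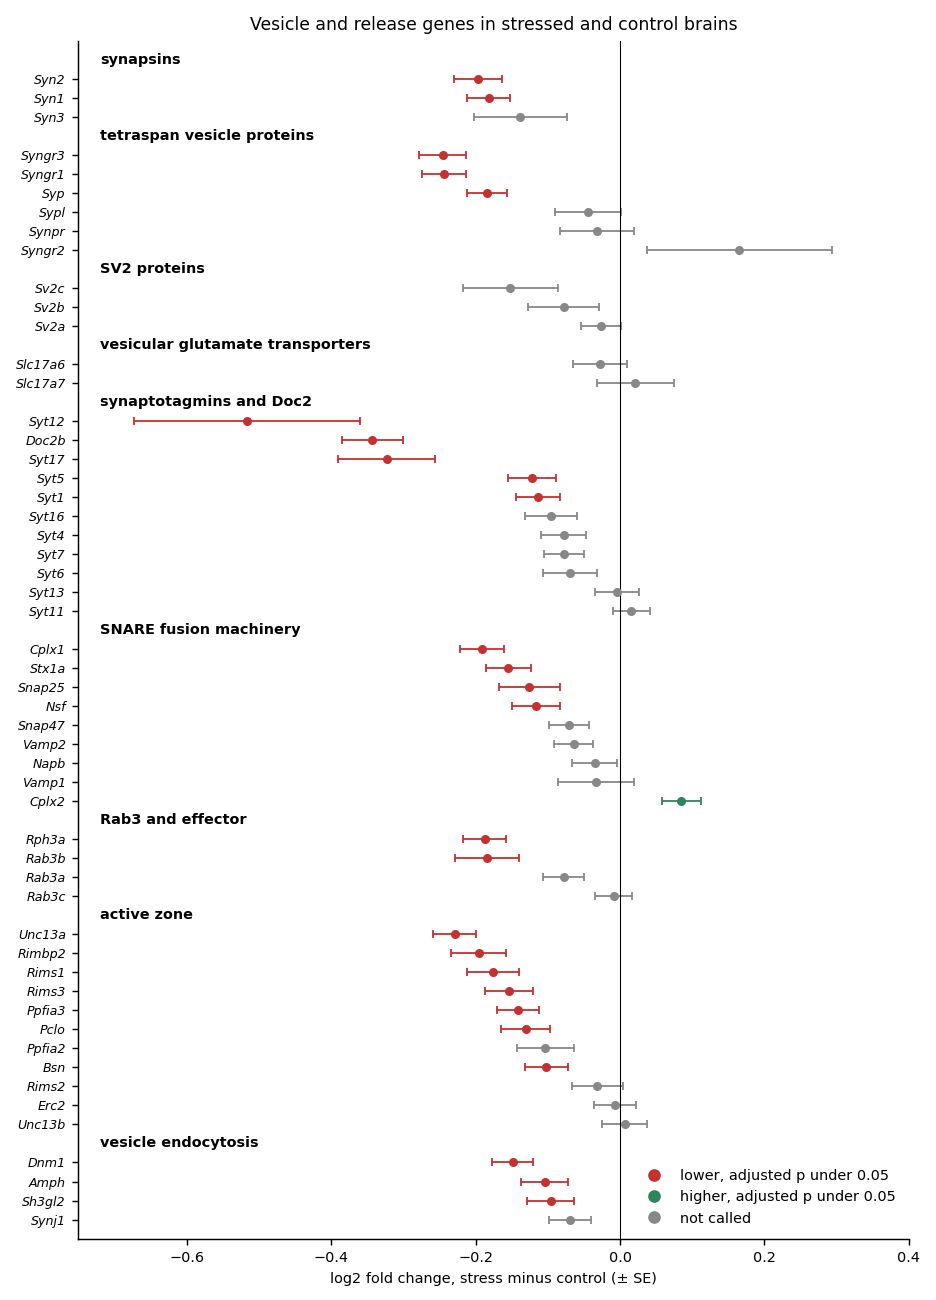
Log2 fold change of the 53 genes (stress minus control, bars ± SE, 4 brains against 4), grouped by role. Red marks the 26 genes called lower, green the 1 gene called higher (*Cplx2*, 0.09 ± 0.03) and grey the 26 genes not called, of which 22 also lie below 0.

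Promoter sequence was searched for 41 of the 53 genes (55 promoters, RefSeq, GRCm38.p6, 250 bases before to 50 bases after the start). In 31 of the 41 a promoter start lay within 100 bases of the start of the counted gene model. Not matched were *Rims2*, *Syt17*, *Vamp2*, *Syt13*, *Syt7*, *Syngr3*, *Syt12*, *Snap25*, *Doc2b*, *Syt5*, *Syn3* and *Syt4*. Searched on both strands, the left arm of the REST element (TTCAGCACC) stood in 3 of the 55 promoters, or 5.45%, and in 122 of all 32851 promoters, or 0.371%. REST is a repressor of neuronal genes that binds a long element made of a left and a right arm. The 3 promoters were those of *Syn1*, *Unc13a* and *Ppfia3*, and they are shown as the promoters among the 55 with this motif. The right arm (GGACAGCGC) stood in 1.82% of the 55 promoters, which was that of *Unc13a* alone, and in 0.405% of all promoters. The cyclic AMP response element (TGACGTCA) stood in 3.64% of the 55, in *Syn1* and *Sh3gl2*, and in 1.79% of all promoters. The sequences below run 5′ to 3′ on the strand of the gene, with the arms and the cyclic AMP response element in capitals. In *Unc13a* both arms lie on the opposite strand, 8 bases apart. The windows are chrX:20920869-20921168 (minus strand) for *Syn1*, chr8:71671708-71672007 (minus strand) for *Unc13a* and chr7:45366970-45367269 (minus strand) for *Ppfia3*.
Syn1: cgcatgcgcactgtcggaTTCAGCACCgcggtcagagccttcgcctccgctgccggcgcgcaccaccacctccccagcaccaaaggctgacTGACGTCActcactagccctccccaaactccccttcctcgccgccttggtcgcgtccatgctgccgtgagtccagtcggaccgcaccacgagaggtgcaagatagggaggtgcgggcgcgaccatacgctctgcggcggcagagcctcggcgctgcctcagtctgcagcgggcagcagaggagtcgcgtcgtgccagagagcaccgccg
Unc13a: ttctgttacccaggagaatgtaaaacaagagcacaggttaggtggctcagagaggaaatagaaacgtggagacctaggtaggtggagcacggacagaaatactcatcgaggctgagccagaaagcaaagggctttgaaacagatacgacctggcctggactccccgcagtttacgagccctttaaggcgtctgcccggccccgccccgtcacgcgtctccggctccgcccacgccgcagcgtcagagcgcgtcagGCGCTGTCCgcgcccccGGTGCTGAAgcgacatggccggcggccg
Ppfia3: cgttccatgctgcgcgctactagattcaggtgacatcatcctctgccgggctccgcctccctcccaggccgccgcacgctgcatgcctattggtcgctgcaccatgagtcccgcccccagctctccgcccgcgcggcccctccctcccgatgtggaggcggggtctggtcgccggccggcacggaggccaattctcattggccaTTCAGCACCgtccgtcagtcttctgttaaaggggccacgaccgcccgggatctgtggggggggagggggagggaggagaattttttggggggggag
The GC box (GGGCGG) stood in 67.3% of the 55 promoters and 35.7% of all promoters. The CCAAT box (CCAAT) stood in 20% against 37.4%, the TATA box (TATAAA) in 5.45% against 13.6%, and the E-box (CACGTG) in 9.09% against 7.15%. The shorter motif TGACG, which the cyclic AMP response element contains, stood in 20% against 20.8%. These matches describe letters in a window and say nothing of binding.

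The 53 genes differed far more among themselves than between the groups. Levels between genes are given in TPM, which scales the counts by the exon length of each gene and by the library. The highest mean level over the 8 brains was that of *Rab3a* (358 TPM, range 339.5 to 372), a GTPase on the vesicle surface. Next came *Snap47* (324 TPM), a SNAP25 relative, *Vamp2* (307 TPM), the vesicle SNARE, and the synaptotagmins *Syt4* (302 TPM) and *Syt11* (249 TPM). At the other end stood *Syt12* (1.22 TPM), *Syn3* (5.001 TPM), *Vamp1* (7.24 TPM), *Syt17* (7.87 TPM) and *Syngr2* (9.59 TPM). In all, 18 genes were above 100 TPM and 5 were under 10 TPM. In this order of 53 genes, 46 of the 52 neighbouring pairs had ranges over the 8 brains that overlapped, so most single ranks are not resolved. The median level of the 27 genes called was 71.1 TPM, and that of the 26 not called was 52.9 TPM. Summed over the 53 genes, the level was 4828 to 4959.7 TPM in the control brains and 4445 to 4736 TPM in the stressed brains.

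**Figure D2:**
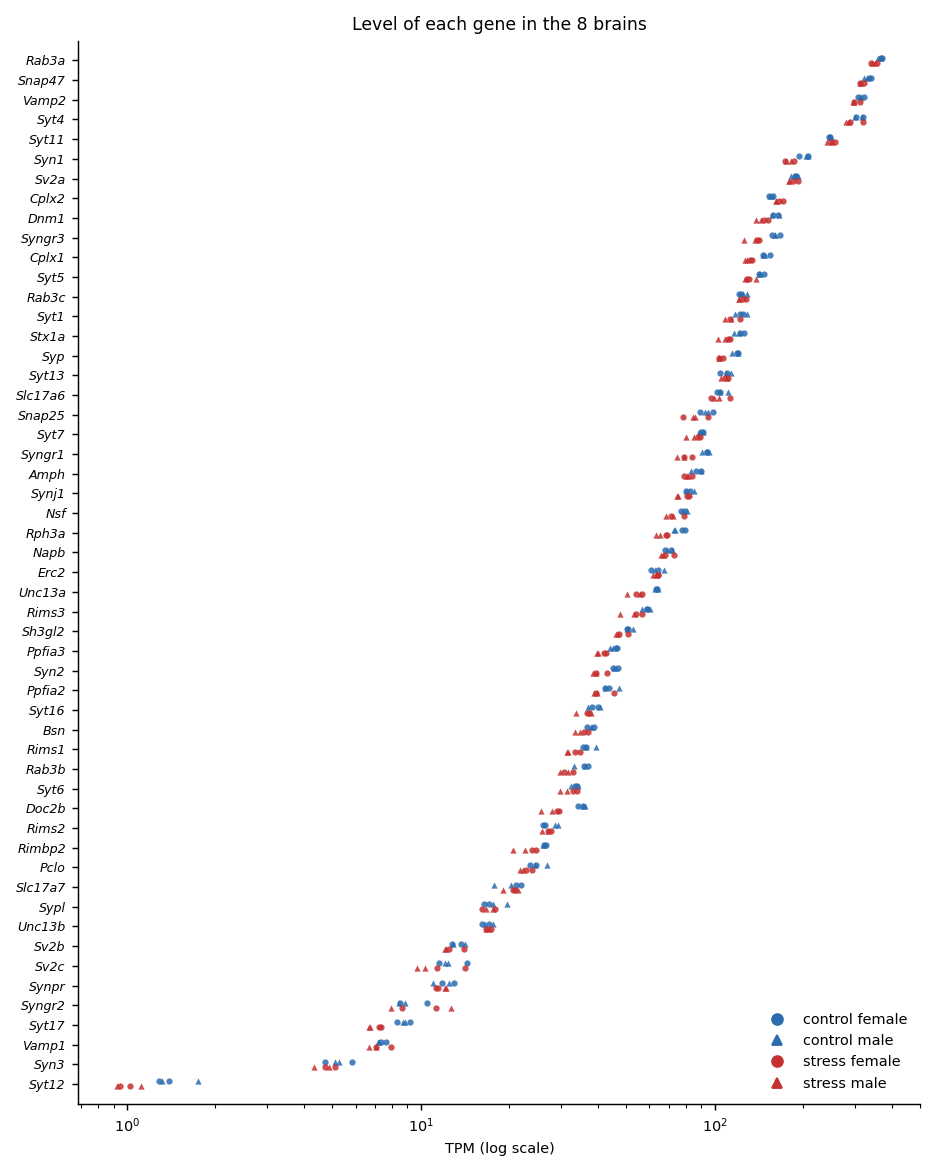
Level of each of the 53 genes in TPM (log scale) in the 8 brains, in order of the mean. Blue marks control and red stress, circles females and triangles males. Levels run from 0.923 TPM for *Syt12* to 372 TPM for *Rab3a*.

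From here on, values of single brains are in CPM (counts scaled by the TMM-adjusted library total), listed in the order F36, F37, M30 and M31 for control and F34, F35, M28 and M29 for stress. Log2FC is given ± SE, and adjusted p-values are those of edgeR. The libraries held 25320109 to 29105710 counts, and the counts of these genes ran from 37 (*Syt12*, lowest brain) to 11318 (*Rab3c*, highest brain).

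Both abundant synapsins fell. Synapsins coat the vesicle surface and hold the reserve pool. *Syn1* (chrX:20860511-20921004, mm10) stood at 178, 166, 175 and 176 CPM in control and at 157, 148, 156 and 152 CPM in stress. Its Log2FC was -0.18 ± 0.03 (adjusted p = 0.000161), and the highest stressed brain lay below the lowest control brain. *Syn2* (chr6:115134902-115282006) stood at 86.02, 82.6, 82.97 and 82.9 CPM in control and at 71.1, 77.7, 70.1 and 73.1 CPM in stress, again without overlap (Log2FC -0.20 ± 0.03, adjusted p = 0.000258). *Syn3*, the least expressed synapsin, was not called (Log2FC -0.14 ± 0.06, adjusted p = 0.164), and 14.11% of its exon bases lie within *Timp3* exons on the opposite strand. Without control F36, which had the lowest control value, *Syn3* was called (Log2FC -0.20).

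Among the tetraspan proteins of the vesicle membrane, *Syngr1*, *Syngr3* and *Syp* fell and the other 3 were not called. Synaptogyrins and synaptophysin span the vesicle membrane several times, and synaptophysin binds VAMP2. *Syngr3* (chr17:24685092-24689955) stood at 89.9, 84.6, 86.2 and 85.5 CPM in control and at 75.1, 74.2, 73.8 and 68.95 CPM in stress (Log2FC -0.25 ± 0.03, adjusted p = 1.94e-05). *Syngr1* (chr15:80091334-80119501) stood at 118, 118, 113 and 118 CPM in control and at 103, 97.5, 98.5 and 94.3 CPM in stress (Log2FC -0.24 ± 0.03, adjusted p = 8.94e-06). In both genes the groups were well apart, and the lowest value was that of stress M29. *Syp* (chrX:7638471-7653256) stood at 162, 163, 155 and 159.8 CPM in control and at 142, 138, 140.3 and 142 CPM in stress (Log2FC -0.18 ± 0.03, adjusted p = 7.51e-05). The stressed brains were close together and all below control, and 16.79% of the exon bases of *Syp* are shared with *Gm14703* on the opposite strand. *Syngr2*, the synaptogyrin found in non-neuronal cells, had a Log2FC of 0.17 ± 0.13 with an approximate 95% interval from -0.09 to 0.42, which holds both a fall and a rise. The values of *Sypl* (-0.04 ± 0.05) and *Synpr* (-0.03 ± 0.05) lay within 1 SE of 0.

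No SV2 protein and no vesicular glutamate transporter was called. The SV2 proteins are transporter-like glycoproteins of the vesicle. Log2FC was -0.03 ± 0.03 for *Sv2a*, -0.08 ± 0.05 for *Sv2b* and -0.15 ± 0.07 for *Sv2c*. *Sv2c* was called lower when control F37 (Log2FC -0.23) or stress F35 (Log2FC -0.245) was left out. *Slc17a6* (VGLUT2), which loads glutamate into vesicles of subcortical and young neurons, stood at 143, 146, 146 and 153 CPM in control and at 134, 157, 139 and 147 CPM in stress. The highest and the lowest of the 8 brains were both stressed (F35 and F34), and the Log2FC was -0.03 ± 0.04, with an interval from -0.10 to 0.04. *Slc17a7* (VGLUT1), the later cortical form, stood at 30.7, 29.6, 24.7 and 27.9 CPM in control and at 28.3, 28.96, 26.6 and 30.5 CPM in stress, with overlapping groups (Log2FC 0.02 ± 0.05, interval from -0.08 to 0.12).

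Of the 11 calcium sensors and their relatives, 5 fell, and this group held the 3 largest falls of all 53 genes. *Doc2b* (chr11:75768966-75796049), a sensor of high calcium affinity linked to spontaneous and asynchronous release, stood at 40.5, 38.99, 40.3 and 40.6 CPM in control and at 32.9, 32.6, 31.8 and 29.4 CPM in stress. Every stressed brain was below every control brain, with a Log2FC of -0.34 ± 0.04 (adjusted p = 8.40e-06). *Syt17* (chr7:118380717-118448222), a synaptotagmin without a transmembrane helix, stood at 12.4, 11.2, 11.9 and 11.6 CPM in control and at 9.74, 9.68, 9.03 and 9.22 CPM in stress (Log2FC -0.32 ± 0.07, adjusted p = 0.00165). *Syt12* (chr19:4445908-4477447) stood at 1.86, 2.01, 2.503 and 1.86 CPM in control and at 1.34, 1.46, 1.603 and 1.35 CPM in stress (Log2FC -0.52 ± 0.16, adjusted p = 0.0273). Control M30 was high in *Syt12*, the gene has the lowest counts and the largest error of the list, and 17.15% of its exon bases are shared with *A930001C03Rik*. Its call was lost without control F37 or M30 or stress F34 or M29 (adjusted p up to 0.133) and with DESeq2.

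*Syt1*, the fast calcium sensor of synchronous release, stood at 271, 265, 254 and 276 CPM in control and at 240.3, 262, 246 and 238 CPM in stress (Log2FC -0.11 ± 0.03, adjusted p = 0.0147). The groups overlapped through stress F35, and the call was lost without control M31 or stress F34 or M29 (adjusted p up to 0.0799). *Syt5*, a sensor close to *Syt1* in sequence, had a Log2FC of -0.12 ± 0.03 (adjusted p = 0.0136), and its call was lost without control F36 or stress M29 (up to 0.0634). The remaining 6 were not called. *Syt4*, with 14.54% of its exon bases shared with *Gm26658*, had a Log2FC of -0.08 ± 0.03, and *Syt7*, the slow sensor, had -0.08 ± 0.03 (adjusted p = 0.0621). Both were called when stress F35 was left out (Log2FC -0.12 and -0.09). *Syt16* (-0.10 ± 0.04) was called without control M30 or stress M28 (-0.12 and -0.13). Log2FC was -0.07 ± 0.04 for *Syt6*, -0.00 ± 0.03 for *Syt13* and 0.02 ± 0.03 for *Syt11*.

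In the SNARE group of 9 genes, *Cplx1*, *Stx1a*, *Snap25* and *Nsf* fell and *Cplx2* rose. *Cplx1* (chr5:108518554-108550024) stood at 88.2, 83.2, 82.5 and 83.4 CPM in control and at 73.8, 75.6, 72.9 and 73.00 CPM in stress (Log2FC -0.19 ± 0.03, adjusted p = 0.000164). *Cplx2* (chr13:54371349-54383917), the other main complexin of the brain, stood at 197, 202, 199 and 195 CPM in control and at 216, 209.8, 206 and 209 CPM in stress. Here every stressed brain was above every control brain, but the rise was small (Log2FC 0.09 ± 0.03, adjusted p = 0.0324). The call of *Cplx2* remained when stress F35 was left out and was lost when any of the other 7 brains, control F36, F37, M30 or M31 or stress F34, M28 or M29, was left out (adjusted p up to 0.107).

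The plasma membrane SNARE *Stx1a* (chr5:135023482-135051100), syntaxin-1A, stood at 84.7, 87.1, 80.1 and 82.4 CPM in control and at 76.7, 76.2, 75.3 and 71.96 CPM in stress, without overlap (Log2FC -0.15 ± 0.03, adjusted p = 0.00125). Its partner *Snap25* (chr2:136713453-136782428) stood at 175, 157, 167 and 162 CPM in control and at 136, 166, 151 and 151 CPM in stress. Stress F35 lay inside the control range, and stress F34 was lowest. The Log2FC of *Snap25* was -0.13 ± 0.04 (adjusted p = 0.0462). The call was lost without control F36 or M30 or stress F34, M28 or M29 (adjusted p up to 0.243), with DESeq2 and without the sex covariate, and without stress F34 the Log2FC was -0.07. *Vamp2*, the vesicle SNARE, stood at 319, 304, 308 and 308 CPM in control and at 290.2, 305, 291 and 298 CPM in stress. It was not called (Log2FC -0.06 ± 0.03, adjusted p = 0.123), and its groups overlapped through stress F35.

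*Nsf*, the ATPase that takes used SNARE complexes apart, had a Log2FC of -0.12 ± 0.03 (adjusted p = 0.0185). That call was lost without control F37 or M31 or stress F34 or M28 (adjusted p up to 0.107). Its adaptor *Napb* (-0.04 ± 0.03) and *Vamp1* (-0.03 ± 0.05) were not called. *Snap47* had groups that did not overlap, a Log2FC of -0.07 ± 0.03 and an adjusted p of 0.0926, and shares 11.58% of its exon bases with *Jmjd4*.

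**Figure D3:**
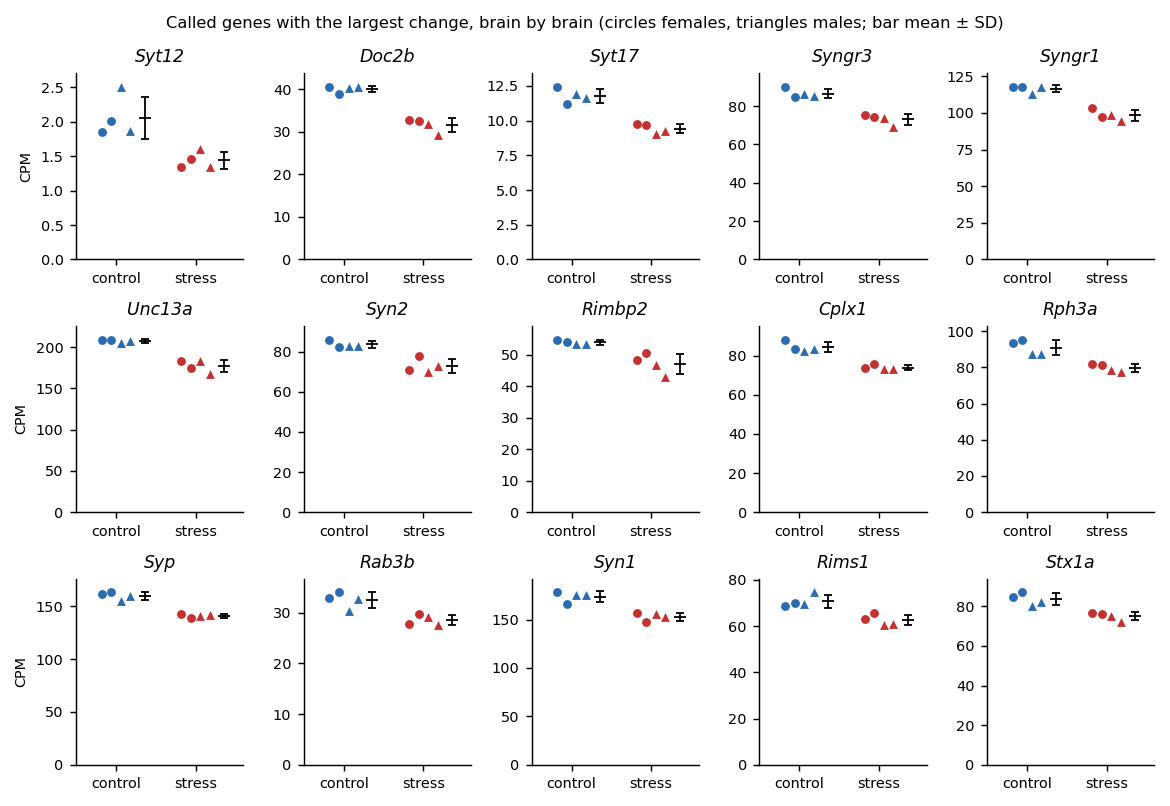
CPM in each brain for the 15 called genes with the largest absolute Log2FC (each axis starts at 0; bars give the mean ± SD of 4 brains). In each of the 15 genes the 4 stressed brains sit below the 4 control brains, for example in *Doc2b* (40.1 ± 0.747 CPM in control and 31.6 ± 1.59 CPM in stress).

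Rab3 proteins bring vesicles to the active zone, and rabphilin binds them. *Rph3a* (chr5:120940499-121010092), rabphilin-3A, stood at 93.5, 95.3, 87.3 and 87.4 CPM in control and at 81.8, 81.6, 78.4 and 77.3 CPM in stress (Log2FC -0.19 ± 0.03, adjusted p = 0.000127). *Rab3b* (chr4:108879063-108943324) stood at 32.8, 33.99, 30.2 and 32.7 CPM in control and at 27.7, 29.8, 29.03 and 27.6 CPM in stress (Log2FC -0.18 ± 0.04, adjusted p = 0.00605). Both were below control in every stressed brain. The far more abundant *Rab3a* was not called, although its groups did not overlap (Log2FC -0.08 ± 0.03, adjusted p = 0.0631), and it was called without control M31 or without stress F35 (Log2FC -0.09 in each). *Rab3c* had a Log2FC of -0.01 ± 0.03, with an interval from -0.06 to 0.04.

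In the active zone, 7 of 11 genes fell. *Unc13a* (chr8:71624417-71671757) encodes Munc13-1, which opens syntaxin and primes vesicles. It stood at 208, 209, 205 and 207 CPM in control and at 183, 175, 183 and 167 CPM in stress, with the control brains close together (Log2FC -0.23 ± 0.03, adjusted p = 1.37e-05). *Rimbp2* (chr5:128757791-128953486), which links RIM proteins to calcium channels, stood at 54.9, 54.2, 53.3 and 53.5 CPM in control and at 48.5, 50.5, 46.7 and 43.05 CPM in stress (Log2FC -0.20 ± 0.04, adjusted p = 0.00107). *Rims1* (chr1:22286251-22805994), the central RIM scaffold, stood at 68.5, 69.8, 69.7 and 74.7 CPM in control and at 62.9, 65.8, 60.7 and 61.04 CPM in stress (Log2FC -0.18 ± 0.04, adjusted p = 0.00165). The stressed brains were lowest in the males for *Rimbp2* and *Rims1*, and no brain crossed into the other group.

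Of the other scaffolds, *Rims3*, a short RIM, had a Log2FC of -0.15 ± 0.03 (adjusted p = 0.00248), and *Ppfia3* (chr7:45339122-45367019), a liprin-alpha, had -0.14 ± 0.03 (adjusted p = 0.00171). The giant scaffolds Piccolo (*Pclo*, -0.13 ± 0.03, adjusted p = 0.0101) and Bassoon (*Bsn*, -0.10 ± 0.03, adjusted p = 0.0198) also fell. The call of *Pclo* was lost without control M31 (adjusted p = 0.0651), and that of *Bsn* without control F36 or M30 or stress M28 or M29 (up to 0.0861). *Rims2* (-0.03 ± 0.04), *Erc2* (-0.01 ± 0.03) and *Unc13b* (0.01 ± 0.03) were not called. *Ppfia2* (-0.10 ± 0.04, adjusted p = 0.084) was called without stress F35 (-0.16), and 24.49% of its exon bases are shared with *Acss3* and *C230021G24Rik*.

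Among the genes of vesicle retrieval, *Dnm1* (chr2:32308471-32353338), the neuronal dynamin that cuts vesicles from the membrane, fell most (Log2FC -0.15 ± 0.03, adjusted p = 0.000726), with 219 ± 5.74 CPM in control and 197 ± 5.21 CPM in stress (SD, n = 4 each). *Amph* (amphiphysin, -0.10 ± 0.03, adjusted p = 0.0333) and *Sh3gl2* (endophilin A1, -0.10 ± 0.03, adjusted p = 0.0467) were called near the threshold with overlapping groups. *Amph* kept its call without control M30 or stress F35 and lost it without any of the other 6 brains, control F36, F37 or M31 or stress F34, M28 or M29 (adjusted p up to 0.14). *Sh3gl2* kept it without stress F35 and lost it without any of the other 7, control F36, F37, M30 or M31 or stress F34, M28 or M29 (up to 0.156). Both calls were also lost with DESeq2, and that of *Sh3gl2* with upper-quartile factors. *Synj1*, the phosphatase synaptojanin-1, was not called (-0.07 ± 0.03, adjusted p = 0.124).

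In 17 of the 27 called genes the call remained whichever of the 8 brains was left out. These were *Syn1*, *Syn2*, *Syp*, *Syngr1*, *Syngr3*, *Syt17*, *Doc2b*, *Stx1a*, *Cplx1*, *Rab3b*, *Rph3a*, *Rims1*, *Rims3*, *Rimbp2*, *Unc13a*, *Ppfia3* and *Dnm1*. *Syn1*, *Syn2*, *Syngr1*, *Syngr3*, *Syp* and *Syt17* are genes that the study itself picked out as lower from animals that include these brains. Their direction here is therefore not independent evidence. The same holds for the other called genes, because the study tested all genes in that set of animals.

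Ratios between genes of 1 family were compared brain by brain as differences of log2 CPM, 21 in all. In 4 of the 21 the groups did not overlap. The log2 ratio of *Cplx1* to *Cplx2* was -1.16, -1.28, -1.27 and -1.23 in the control brains and -1.55, -1.47, -1.50 and -1.52 in the stressed brains, a difference of -0.28. For *Unc13a* to *Unc13b* it was 1.04, 1.13, 0.99 and 1.10 in control and 0.86, 0.84, 0.86 and 0.74 in stress, a difference of -0.24. The *Rab3b* to *Rab3c* ratio differed by -0.17 and the *Rims1* to *Rims2* ratio by -0.14, the latter with control M30 and stress F35 equal at 2 decimals (-0.14). Each of the 4 had the smallest exact two-sided permutation p that 4 against 4 allows, 0.0286. After adjustment over the 21 ratios it was 0.15, so none passes. With only 4 ratios at the smallest p none could pass, so the adjustment decides nothing about them. Ratios that share a gene are also not independent. The ratios *Syngr1* to *Syngr3* (difference 0.00) and *Syn1* to *Syn2* (0.015) overlapped fully, with both genes of each pair lower in stress.

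**Figure D4:**
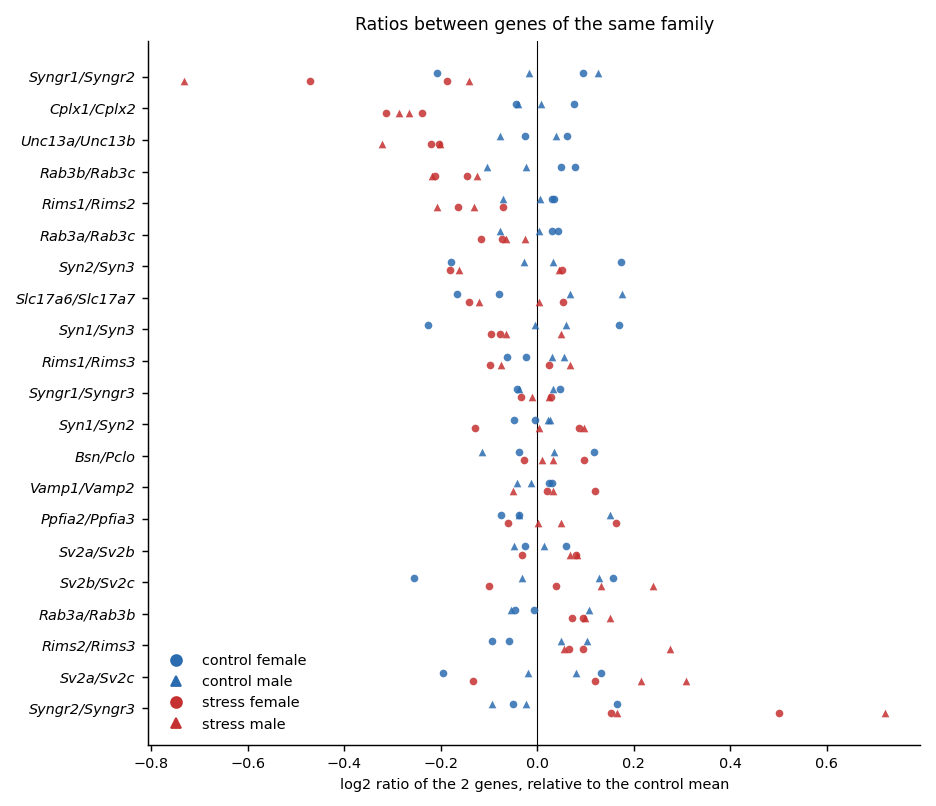
Log2 ratio of 2 genes of a family in each brain, relative to the control mean, for the 21 ratios in order of the difference. In *Cplx1*/*Cplx2*, *Unc13a*/*Unc13b*, *Rab3b*/*Rab3c* and *Rims1*/*Rims2* all stressed brains lie to the left of all control brains, while in the other 17 the groups overlap.

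Sex was examined with the same model. Between males and females 0 of the 53 genes were called with edgeR and 0 with DESeq2, where 0.0896% of all genes tested were called. At an unadjusted p under 0.05 edgeR gave 4 of the 53, against 5.91% of all genes tested, all 4 lower in males, namely *Sv2c*, *Rph3a*, *Stx1a* and *Rimbp2* (Log2FC -0.20, -0.09, -0.07 and -0.08, males vs. females). For the interaction of sex and stress, again 0 of 53 were called by either tool, against 0.0056% of all genes, and 4 had an unadjusted p under 0.05 with edgeR, against 6.31% of all genes. These were *Rims1*, *Pclo*, *Rims2* and *Synpr*. *Rims1* had a Log2FC of -0.10 in females and -0.25 in males, and *Pclo* -0.06 and -0.20. *Rims2* had 0.05 and -0.11, and *Synpr* -0.14 and 0.07. All 26 genes called lower lay below 0 in both sexes when fitted alone, 2 brains against 2. The 26 were called from these same brains with both sexes together, so their selection favours a negative sign in each sex. Their shared sign is therefore a description and not independent evidence from each sex. The median over the 53 genes was -0.09 in females and -0.13 in males, with 43 and 47 genes below 0.

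Beyond the 53, another 94 genes of release and recycling were listed, of which 87 were tested. Of these, 24 were lower and 1 was higher, with a median Log2FC of -0.07. *Sncb* (-0.31 ± 0.04, adjusted p = 6.92e-06), a presynaptic gene, was among the 10 with the smallest adjusted p. Endocytosis genes among these were *Pacsin1*, encoding syndapin (-0.28 ± 0.04), *Snap91*, encoding the clathrin adaptor AP180 (-0.16 ± 0.03), and *Bin1*, encoding an amphiphysin relative (-0.15 ± 0.03). Active zone genes were *Apba1*, encoding Mint1 (-0.21 ± 0.03), *Ppfia4* (-0.25 ± 0.04) and *Rims4* (-0.20 ± 0.04). Also among the 10 were the proton pump subunit *Atp6v0a1* (-0.13 ± 0.03) and *Doc2a* (-0.43 ± 0.09), the partner of *Doc2b*. Exons of *Ino80e* on the opposite strand overlap 39.35% of the exon bases of *Doc2a*. *Doc2a* had 7.79 ± 0.574 CPM in control and 5.79 ± 0.641 CPM in stress (SD, n = 4 each). The gene that rose was *Rab3gap2* (0.11 ± 0.03, adjusted p = 0.0305), which regulates Rab3 proteins, and this call was lost (0 genes higher) with DESeq2 and without control F36, M30 or M31 or stress M28. Of its exon bases, 19.26% are shared with *Gm34882* and *Iars2* on the opposite strand. Without stress F35 the genes called higher were 2, *Rab3gap2* and *Sypl2*. *Vamp7* was not found by symbol and *Syt8*, *Cplx3*, *Cplx4*, *Syngr4*, *Svopl* and *Slc18a1*, the other 6 genes not tested, were under the filter. With library sizes taken from pan-neuronal markers the split was 14 lower and 4 higher (*Rab3gap2*, *Syt14*, *Sypl2* and *Dnm2*).

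Markers of several other cell types also differed between the groups. Of 10 markers of dividing cells, 9 were higher in stress (median Log2FC 0.23), *Top2a*, *Mki67* and *Ccnb1* having the smallest adjusted p, and their summed level was 535 to 569 TPM in control and 599 to 663 TPM in stress. Of 10 markers of intermediate progenitors and neuroblasts, 7 were higher (median 0.15, 1821 to 1885 TPM against 1970.3 to 2024 TPM). Of 12 radial glia markers 5 were called higher, while 6 lay below 0 (median -0.0045). The summed radial glia levels overlapped, at 3048 to 3204 TPM in control and 3060 to 3306 TPM in stress. All 15 pan-neuronal markers passed the filter, and 6 were lower and 1 was higher (median -0.05), and their sum was 11708 to 11996 TPM in control and 11284 to 11651 TPM in stress. When library sizes were set to the counts of these pan-neuronal markers, 18 of the 53 genes were called lower and 1 higher, with a median of -0.07, while the median of all genes tested moved to 0.04. *Syt1*, *Syt5*, *Snap25*, *Nsf*, *Bsn*, *Pclo*, *Amph* and *Sh3gl2* were then no longer called. The part of the dividing and neuroblast markers in the result was not tested.

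Markers of brain regions differed between single brains. The 8 hindbrain markers, all Hox genes, had a summed level of 182, 73.6, 99.3 and 91.99 TPM in the control brains and 25.96, 186, 18.6 and 78.5 TPM in the stressed brains. None of the 8 was called, and stress F34 and M28 were far below the others while stress F35 was the highest. With this level as a covariate, 22 of the 53 genes were called lower and 0 higher, with a median of -0.08, and without F34 and M28 19 were called lower and 0 higher. Both of these fits were added after the values were seen. Of 7 telencephalon markers 4 were higher and 1 was lower, and of 7 midbrain markers 2 were higher. Stress F34 also had the highest summed choroid plexus level (143 TPM, the others 35.5 to 63.5), where 3 of 6 markers were called higher. Stress M28 had the highest level of meningeal markers (30.8 TPM, the others 9.27 to 17.1), where 3 of 7 tested were higher. Lower in stress were 4 of 9 astrocyte and oligodendrocyte precursor markers and 3 of 8 endothelial and pericyte markers. Of the remaining lists, 1 of 8 GABAergic neuron markers was higher, and of 8 cortical glutamatergic markers 2 were lower and 1 was higher. Of 6 thalamus and hypothalamus markers 3 were higher, of 8 microglia markers none was called, of 7 erythroid markers tested 1 was lower and 1 higher, and of 7 pituitary markers only 3 passed the filter, of which none was called, and *Gh* and *Prl* were at 0 in every brain. The part of the choroid plexus and meningeal markers was not tested beyond the fit without F34 and M28.

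**Figure D5:**
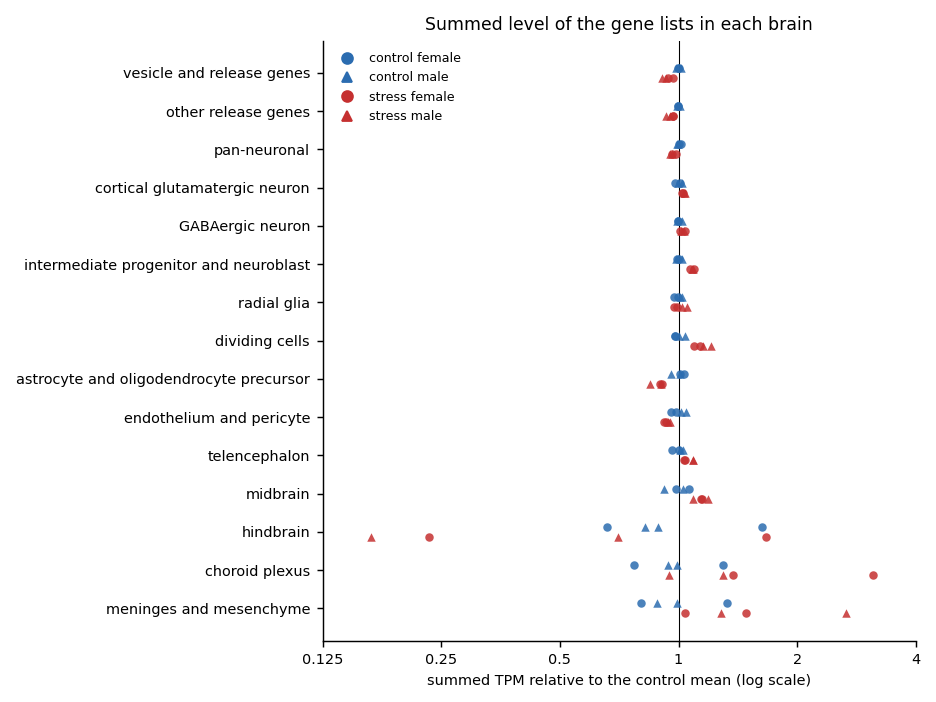
Summed TPM of the 53 genes, of the 94 other release genes and of marker lists in each brain, relative to the control mean (log scale). The 53 genes lie lower in all 4 stressed brains and the dividing-cell markers higher in all 4, while the hindbrain markers spread from 18.6 to 186 TPM within the stress group.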

How the data were processed

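The data are RNA-seq libraries of single E15.5 mouse brains, 8 in all, 4 control and 4 stress, with 2 females and 2 males in each group as the labels give them. The deposited values are raw counts per gene, which the authors made by trimming the reads (Trim Galore), aligning them to mm10 with TopHat2 2.1.1 and counting read pairs on GENCODE exons with featureCounts 1.6.3. The counting options that the study lists set read pairs, exons and gene identifiers. None of them sets strand, or the handling of multiply aligned reads or of reads on several genes. Counts of genes that share exon bases on opposite strands may therefore be distorted, and in which direction was not tested. Shares over 10% are given beside the gene. The labels name no batch for these brains. Symbols were matched by Ensembl identifier for 54723 of 54752 genes, and all 53 members were found.

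From the counts, 17865 genes passed filterByExpr with a minimum count of 10. TMM factors were used, and the quasi-likelihood F test of edgeR 4.0.16 (R 4.3.3) was run on condition with sex as covariate, Benjamini-Hochberg adjustment over all genes tested and calls at an adjusted p under 0.05. SE is the absolute Log2FC divided by the square root of F. The 95% intervals take this SE with a normal distribution, so they are somewhat narrower than the F test would give. Log2 CPM used a prior count of 2, and TPM was computed from counts and exon lengths. Totals were 25320109 to 29105710 counts per brain, the common coefficient of variation was 3.14%, and 4 brains against 4 allow no exact two-sided permutation p below 0.0286. The fits were tested on simulated data with planted changes larger than that of every called member except *Syt12*. That test does not measure how well smaller changes are called. Promoter sequences are RefSeq's.

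The members and the gene lists were chosen with earlier results of these data known. All 53 members are named. Values brain by brain are given for the 15 called members with the largest absolute Log2FC, for *Syn1*, *Syn2*, *Syngr1*, *Syngr3*, *Syp* and *Syt17*, for *Slc17a6*, *Slc17a7*, *Snap25*, *Syt1*, *Stx1a* and *Vamp2*, and for any member called against the majority. Of the other release genes, the 10 with the smallest adjusted p (except 1, which is not reported here) and any called higher are named, with genes not tested or called in single fits named after their values were seen. Alternatives were DESeq2 1.42.0, 2 other normalizations, library sizes from pan-neuronal markers, no filter, no sex covariate, each sex alone and each brain left out. A Hox covariate and a fit without the 2 brains lowest in Hox genes were chosen after seeing the data.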

Additional observations from a re-analysis of the deposited data

Results flagged for a closer look

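In 106 groups of 4 brains (53 genes, control and stress), 10 had 1 brain far from the other 3 by Dixon's criterion, where chance alone gives about 1 in 20. Stress F35 was the high brain in 4 of them. It had 30.3 CPM of *Sv2b* (the other stressed brains 26.6 to 26.7), 319 CPM of *Syt4* (287 to 290.1), 132 CPM of *Napb* (122 in each of the others) and 85.4 CPM of *Sh3gl2* (79.2 to 79.7). Control F36 was the high brain in 3, with 86.0 CPM of *Syn2* (the other controls 82.6 to 83.0), 91.3 CPM of *Syt5* (86.9 to 87.4) and 88.2 CPM of *Cplx1* (82.5 to 83.4). F35 and F36 were also the stressed and the control brain with the highest summed Hox level, and the part of that level in these values was not tested. In *Syngr1* control M30 was low with 113 CPM (the other controls near 118), in *Doc2b* control F37 was low with 39.0 CPM (40.3 to 40.6), and in *Syt5* stress M28 was high with 85.6 CPM (78.8 to 79.7).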

How the results depend on the processing

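Of the 53 genes, 19 to 31 were called lower when each brain was left out in turn and 0 to 1 was called higher, with a median Log2FC of -0.1223 to -0.0859. With females only 11 were called lower, and with males only 24. The shares of all genes called in these 2 fits are not given here, so the counts do not compare the sexes. The interaction of sex and stress was called in 0 of the 53 genes. The 1 gene called higher was lost (0) without the filter, in females only, in males only, with the Hox covariate and without the 2 brains lowest in Hox genes. The median was -0.0653 with library sizes from pan-neuronal markers, -0.1283 in males and -0.0768 with the Hox covariate. DESeq2 called 22 lower, other normalizations 25 to 26, and no filter 30. No called gene changed sign under any of these. The called genes were picked in the main fit to the same brains, which favours a kept sign, so this is not independent evidence. Of the 94 other release genes, 14 were lower with pan-neuronal library sizes and 6 in females only. The number higher was 0 with DESeq2, in females, in males, with the Hox covariate and without the 2 brains lowest in Hox genes, 4 with pan-neuronal library sizes and 0 to 2 with 1 brain left out. Between the sexes, no filter gave 1 call (*Sv2c*). The causes of these changes were not tested, and only some of these fits held fewer brains.

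Sign changes were limited to genes that were not called. In females only, Log2FC was 0.0108 for *Sypl*, 0.009 for *Slc17a6*, -0.0735 for *Slc17a7*, 0.011 for *Syt13*, 0.0244 for *Rab3c*, 0.046 for *Rims2* and 0.0198 for *Erc2*, and in males only 0.0716 for *Synpr*. With pan-neuronal library sizes it was 0.0066 for *Synpr*, 0.012 for *Sv2a*, 0.01 for *Slc17a6*, 0.0336 for *Syt13*, 0.0047 for *Vamp1*, 0.0029 for *Napb*, 0.0294 for *Rab3c*, 0.0069 for *Rims2* and 0.0318 for *Erc2*. With the Hox covariate it was 0.0055 for *Sypl*, -0.0009 for *Syngr2*, 0.0228 for *Slc17a6* and 0.0018 for *Rab3c*. Without the 2 brains lowest in Hox genes it was 0.0146 for *Sypl*, -0.1212 for *Syngr2*, 0.0442 for *Slc17a6*, -0.0038 for *Syt11*, 0.0051 for *Rab3c* and -0.0076 for *Unc13b*. With 1 brain left out the ranges that crossed 0 were -0.0884 to 0.0148 for *Synpr*, -0.0019 to 0.2739 for *Syngr2*, -0.0831 to 0.0081 for *Slc17a6*, -0.0388 to 0.0485 for *Slc17a7*, -0.0247 to 0.0103 for *Syt13*, -0.025 to 0.0046 for *Rab3c*, -0.0541 to 0.0003 for *Rims2*, -0.0117 to 0.0245 for *Unc13b* and -0.0294 to 0.0183 for *Erc2*.

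No paired analysis was possible because the animal codes in the labels are not shared between the groups. With 4 littermates of 1 dam in each group, the values describe these 2 litters. For *Syt12*, with as few as 37 counts in a brain, counting error limits the estimate.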
